A study of Drosophila melanogaster with 6 samples.

Results

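The homothorax (hth) locus of Drosophila melanogaster was taken as release 5 positions 6315000 to 6470000 on chromosome arm 3R, and every Yorkie (Yki) peak that overlapped this stretch was a member. The rule used position only, and no peak score. These bounds were not checked against a release 5 annotation, so positions below are positions in this stretch and not along the gene. It found 4 peaks of the 5136 in the deposited list, and 733 further peaks lay on the rest of 3R. Yki was mapped by chromatin immunoprecipitation and sequencing (ChIP-seq) in whole embryos aged 8 to 16 h, which mix many cell types and a range of ages. Chromatin fixed in 1.8% formaldehyde for 15 min was precipitated with Yki91, a crude rabbit polyclonal serum against full-length Yki. There were 3 Yki ChIP libraries and 3 input libraries, and the peak list gives no values per library.

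Both groups came from the same Y cn bw sp strain. Its labelled genotype carries y[1] and oc[R3.2] on the X. The second chromosome has the eye-colour alleles cn[1] and bw[1] and the body marker sp[1], besides Gr22b[1] with Gr22d[1], alleles of gustatory receptor genes, and CG33964[R4.2]. The chromosome on which hth lies has Rh6[1] in a rhodopsin gene, GstD5[1] in a glutathione transferase gene and lab[R4.2] in the Hox gene labial, besides MstProx[1] and also LysC[1]. No allele of hth or yki is among them.

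Hth is a homeodomain protein of the TALE class, related to the vertebrate MEIS proteins. It binds Extradenticle (Exd), another TALE homeodomain protein, carries it into the nucleus, and with it acts as a cofactor of Hox proteins in the embryo. Yki is the coactivator that the Hippo growth-control pathway keeps in check. Yki does not bind DNA by itself, and besides Scalloped (Sd), a TEAD family factor, Hth serves as one of its DNA-binding partners, first described in progenitor cells of the developing eye. The question here is how Yki itself lay along the stretch taken as the locus of the gene that encodes this partner.

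Yki peaks were present at the hth locus, at a density close to that of the rest of 3R, and all 4 were of middling strength. The first peak, at 6361539 to 6361825, had a score of 22.64 and a width of 287 bp. The second, at 6439975 to 6440432, had the highest score of the locus, 55.49, and a width of 458 bp. The third lay at 6447924 to 6448202, with a score of 23.48 and a width of 279 bp, the narrowest of the set. The fourth, at 6464435 to 6464998, was the widest with 564 bp and scored 53.69. The peaks thus formed a lower-scoring pair and a higher-scoring pair, which alternated along the locus. The highest score was 2.45 times the lowest, and the widest peak was 2.02 times as wide as the narrowest. The score is the authors' value for each peak, on a scale not given in the sources used here, and serves only to rank peaks within this list. With 1 list and no library values, no replicate error can be attached to it.

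The 4 peaks were not spread evenly. The first stood alone, centred 46.7 kb from the start of the locus, with no peak in the 46.5 kb before it. The other 3 were centred at 125, 133 and 149.7 kb and together spanned 25.02 kb near the far end of the locus. The last of them ended 5.00 kb inside the upper bound. From the first peak to the last the span was 103 kb. Each peak lay wholly inside the bounds.

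**Figure D1:**
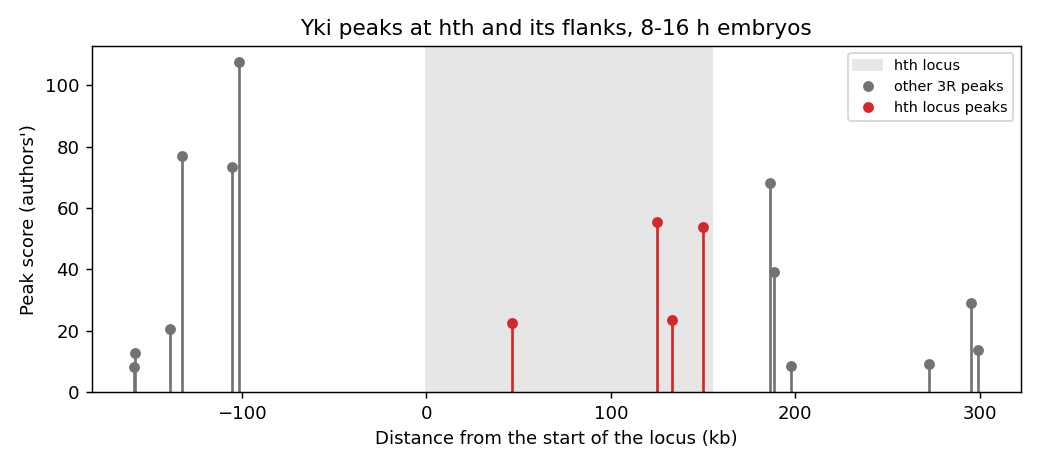
Score of each Yki peak (vertical axis, the authors' score) by the distance of its centre from the start of the hth locus (horizontal axis, kb), with the locus shaded, its 4 peaks in red and other 3R peaks in grey. The 4 peaks scored between 22.64 and 55.49, and 3 of them sat near the far end, while within 155 kb of the locus peaks scored up to 107.39 before it and up to 68.11 after it.

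Of the 5136 peaks in the whole list, 3182 lay on the 6 chromosome arms and the rest on other sequence. Set against this whole list, the second peak ranked 1629 by score and the fourth 1683, while the third ranked 3024 and the first 3088. Among the 737 peaks of 3R the ranks were 244, 252, 475 and 487 in the same order. Of the other 3R peaks, 66.7% scored below the second peak and 65.9% below the fourth, and 35.2% scored below the third and 34.1% below the first. Of the 4 peaks, 2 reached the median score of the list, 30.1, which 50.0% of all peaks and 55.1% of 3R peaks reach. None reached the upper quartile of 72.8, which 24.6% of 3R peaks reach. The highest score on 3R, 472.97, was 8.52 times the highest at hth.

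The median score over the 4 peaks was 38.6, compared with 33.4 over the other 3R peaks, a difference of 5.18. This median falls in the empty space between the 2 pairs. Without the highest-scoring peak the difference was -9.92, and with the locus shortened by 10 kb on each side, which removes the fourth peak, it was -10.01. The direction therefore reversed when either of the 2 higher-scoring peaks was left out. It was also negative (-10.85) among the strongest 50% of the list, where both were kept. The scores at hth lay within the bulk of the arm, whose quartiles were 17.75 and 71.9.

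Of the 4 hth peaks, 3 were narrower than the median of other 3R peaks with scores near their own, a comparison added after the peaks were seen. By definition such a median has as many peaks below it as above it. The median width over the locus was 372.5 bp, against 442 bp on the rest of 3R, a difference of -69.5 bp. It was -155 bp without the highest-scoring peak, and also with the locus shortened by 10 kb on each side. The first and the third peak were wider than 21.1% and 18.6% of the other 3R peaks, the second than 51.6% and the fourth than 65.5%. Each peak was also set beside the other 3R peaks with scores from 0.8 to 1.2 times its own. Those like the second peak had a median width of 546 bp, and 71.1% of these 90 peaks were wider than its 458 bp. Of the 109 like the first peak, 78.0% were wider, with a median of 353 bp against 287 bp. Of the 104 like the third peak, 79.8% were wider, with a median of 343 bp against 279 bp. The fourth peak, at 564 bp, was close to the median of 546 bp over its 92, of which 44.6% were wider. In all, the 4 peaks covered 1588 bp, or 1.02% of the locus, while peaks covered 1.48% of the rest of 3R. With 4 peaks and no replicate values, these width differences are descriptions without a test.

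**Figure D2:**
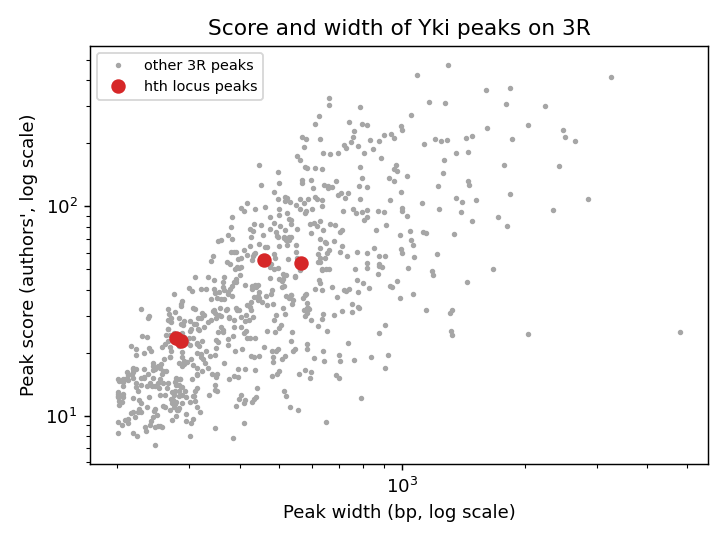
Score against width (both axes logarithmic, score as deposited by the authors, width in bp) for each Yki peak on 3R, with the 4 hth peaks in red. The red points lie inside the grey cloud, at scores of about 23 for the narrow pair and about 54 for the wider pair.

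The first peak was isolated from the rest, and the other 3 lay at ordinary distances for 3R. The second and the third were 7.49 kb apart and formed the only pair within 10 kb, so 2 of 4 peaks had such a neighbour, where 61.9% of 3R peaks did. These 2 are a single mutual pair, and no comparison of shares can be drawn from it. The third and the fourth peak were 16.2 kb apart, close to the median gap of 3R, 16.6 kb. Between the first and second lay 78.1 kb without a peak, longer than 85.3% of the 736 gaps on the arm. Before the first peak the gap was longer still. It ran for 147 kb from a peak outside the locus, longer than 95.2% of the gaps on 3R and the 35th longest of them. After the fourth peak the next one followed at 35.9 kb, a gap longer than 67.7% of those on the arm. The longest gap on 3R was 351 kb.

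**Figure D3:**
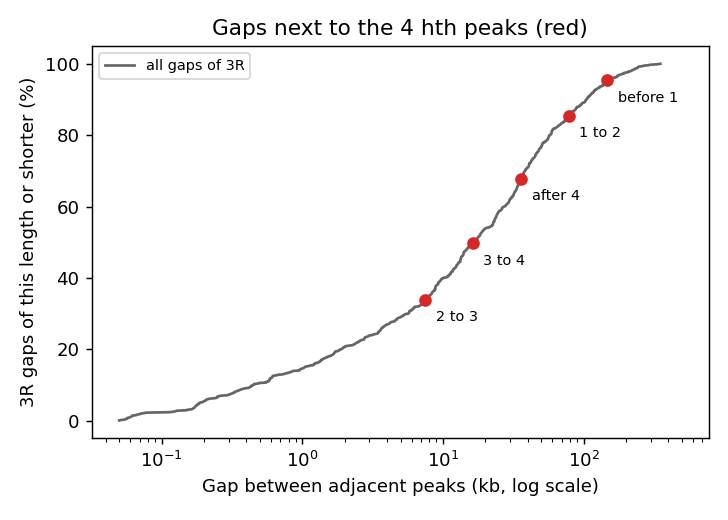
Share of the 736 gaps between adjacent 3R peaks that are of a given length or shorter (vertical axis, percent) by gap length (horizontal axis, kb, log scale), with the 5 gaps next to the 4 hth peaks in red, numbered by the peaks they separate. The gaps before the first peak (147 kb) and between the first and second (78.1 kb) lie high on the curve, and that between the second and the third (7.49 kb) lies below its middle.

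The bounds of the locus did not cut through a group of peaks. The nearest peak before it lay 101 kb outside, at 6212646 to 6214161, with a score of 107.39 and a width of 1516 bp. The nearest after it lay 30.9 kb outside, at 6500918 to 6501270, with a score of 68.11 and a width of 353 bp. Both outscored every peak at hth. In the stretch of equal length before the locus there were 4 peaks with a median score of 75.2 and widths of 539 to 1516 bp. In that after it there were 6 peaks with a median score of 21.4 and widths of 235 to 445 bp. The median at hth, 38.6, lay between those of its flanks, while single scores overlapped both, from 20.45 to 107.39 before the locus and from 8.41 to 68.11 after it. In the 1 Mb centred on the locus, the other 28 peaks had a density of 33.1 per Mb, a median score of 34.1 and a highest score of 209.4. Of these 28, 23 (82.1%) had a neighbour within 10 kb, beside 61.9% on the rest of 3R, which includes them.

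The locus held about as many Yki peaks as its length gives at the density of the arm. Its density was 25.8 peaks per Mb, with an exact Poisson 95% interval of 7.03 to 66.1, compared with 26.5 per Mb on the rest of 3R and on the other sequence of the 6 chromosome arms. The ratio to 3R was 0.975 (0.266 to 2.50), and the density of 3R corresponds to 4.10 peaks over this length. The interval of the ratio is that of the locus divided by the density of the rest of 3R, which was taken as known. These intervals cover counting error at the locus only, and peaks that lie in clusters vary more than they allow.

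Windows of the same length as the locus, tiled along all of 3R with the locus included, gave the same picture. The window at 6355042 to 6510042 held all 4 hth peaks among its 6 and counts as one above. Of 179 windows, 96, or 53.6%, held at least 4 peaks, with 26 at exactly 4, 83 below and 70 above, and the median window held 4. A further measure, the highest score in a window, placed hth lower. Its 55.49 exceeded the highest score of 63 windows, or 35.2%, among them the 12 without a peak, and the median over windows holding a peak was 88.4. Among the 26 windows with exactly 4 peaks, 4 had a lower highest score and 8 a lower summed score. The summed score at hth was 155.3, compared with a median of 242 in those 26 windows and 179 in all windows of 3R. The peak number of the locus was thus that of a typical window of 3R, and its strongest peak was weaker than in most windows with the same number. Across the 773 windows of the 6 arms, 38.0% had a lower highest score than hth. The windows of 3R with the most peaks held far more, with 17 at 17360113 to 17515113 and 11 in each of 7 others. The first 4 of those 7 by position started at 9765064, 10075066, 10385068 and 10540069. The one starting at 10385068 had a highest score of 71.02, so many peaks did not always come with a strong one.

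**Figure D4:**
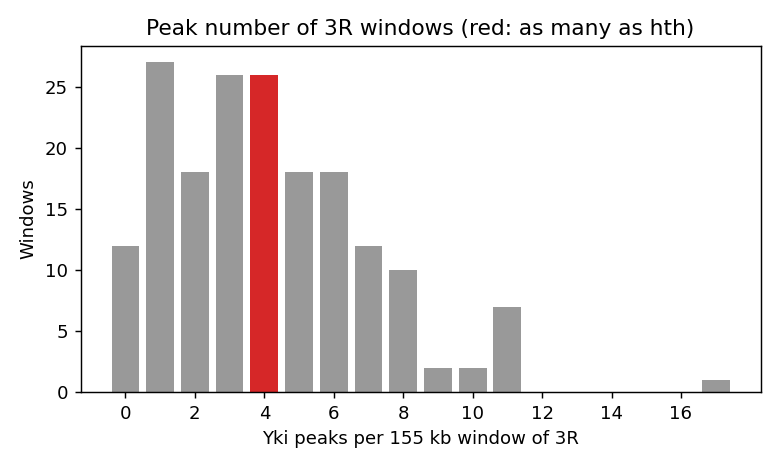
Number of 3R windows (vertical axis) by the number of Yki peaks in a window of 155 kb (horizontal axis), with the bar of windows that hold as many peaks as the hth locus in red. The red bar stands for 26 of the 179 windows, at the median of a distribution that runs from 0 (12 windows) to 17 peaks (1 window).

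The gene table at hand follows release 6 and was used for names and gene order only, so no peak was placed in an exon, an intron or at a promoter of hth. It lists hth (Dmel_CG17117) on 3R with 5 RefSeq transcripts. Within the span of hth it lists the microRNA gene mir-4944, and over one end the antisense RNA gene asRNA:CR44018. The next protein-coding genes are Cyp12e1, which encodes a cytochrome P450, and CG6465 on the other side, with lncRNA:CR45576 between Cyp12e1 and hth. A peak has no strand, and whether one of the 4 belongs to hth or to an overlapping or neighbouring gene cannot be told apart. Of the genes for the proteins named above, the table lists yki on 2R and both sd and exd on the X. Yki peaks at these genes were not analysed here.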

How the data were processed

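ChIP-seq of Yki in 8 to 16 h embryos (3 Yki ChIP and 3 input libraries) was read from 1 peak list for the whole series. Each peak has a score deposited by the authors, of unstated scale, and other columns deposited by the authors give its start and end. Per the file headers, coordinates follow FlyBase release 5, and the file names MACS as the source of the peaks. BWA, MACS2, CASAVA (1.7.0.3 and 1.7.0.2) and the BDGP5 build are named in the submitters' processing notes, without parameters. Neither the depth of the libraries nor how they were combined before peak calling is stated in the labels or the file. The labels do not say whether libraries came from separate embryo collections.

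Peaks overlapping the locus by any base were members. The furthest peak end stood for the length of an arm. Gaps were counted as bases between peaks, and only whole windows were tiled. Intervals are exact Poisson 95% intervals of the locus count and cover counting error only. That of the ratio takes the density of the rest of 3R as known. Clopper-Pearson intervals served only to judge how far shares moved between alternatives. No test was run, since peaks of 1 list are not replicates. The counting steps were tested on simulated data. All 4 members, the nearest peak outside each bound, and the 5 windows of 3R with the most peaks (ties by position) were named by rule, and of genes only hth, its neighbours, yki, sd and exd. The locus and these choices were made with earlier results of these data known. The comparison with peaks of like score and with the flanks was added after the peaks were seen. Sequences and release 5 gene models were not used here, so the planned motif and protein descriptions were not made. Computation used pandas 2.3.3, numpy 2.4.6 and scipy 1.17.1 under Python 3.11.15, and plots used matplotlib 3.10.9.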

Additional observations from a re-analysis of the deposited data

How the results depend on the processing

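The number of peaks at hth was 4 with peaks lying wholly inside, with the locus extended by 10 kb and with gaps of up to 1 kb merged, and 3 with the locus shortened by 10 kb on each side. It was 2 in the strongest 50% of the list and 0 in the strongest 25%, where the density ratio to 3R and the share of windows with fewer peaks also became 0 by construction. The density ratio, 0.975 as reported and with peaks lying wholly inside, rose above 1 to 1.14 with gaps of up to 1 kb merged. It was 0.884 in the strongest 50%, 0.863 with the extended locus and 0.839 with the shortened one. Which side of 1 the ratio fell on thus depended on merging. The difference in median score turned negative in the strongest 50% (-10.85), with the shortened locus (-10.01) and without the highest-scoring peak (-9.92), each over fewer peaks. The difference in width stayed negative in the 5 alternatives run for it but ranged from -57.5 to -155 bp, the latter with the shortened locus and without the highest-scoring peak. The share of hth peaks with a neighbour was 0 within 5 kb (48.7% on the rest of 3R), 0 within 10 kb in the strongest 50% (44.3%) and 75% within 20 kb (76.7%). A change in a value over these 4 peaks was judged against their own SD, 18.2 for score and 139 bp for width, or against an exact interval. This SD is the spread among the 4 peaks and not an error of their median. By this loose yardstick even a width difference of -155 bp counted as unchanged. No paired analysis was possible because every peak has a single score over all libraries, which also kept any replicate from being left out. Depth per library is unknown, so weaker sites that the depth hid cannot be counted.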
